A study of Mus musculus with 6 samples.

Results

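The genes described here build, modify or carry sulfated sugar chains of the cell surface and matrix, chiefly heparan sulfate and chondroitin sulfate. A list of 41 mouse genes was used: carbohydrate sulfotransferases, N-deacetylase/N-sulfotransferases, chain polymerases, the sulfatases Sulf1 and Sulf2, glypicans and syndecans. A gene was taken when at least 1 probe set on the array is annotated to it and to no other symbol, which gave 40 genes with 78 probe sets among 45037 non-control probe sets. Ndst1 had no such probe set and is not analysed here. The samples are ventral telencephalon, called ventral forebrain in the design text, of mouse embryos at E13.5 (embryonic day), either Olig2-/- or Olig2+/+, and no treatment is named in the labels. Olig2 is a basic helix-loop-helix transcription factor, and Olig2-/- embryos are labelled as its knockout. The labels used here name neither the kind of allele nor the strain. Each Affymetrix MOE430 2.0 array carried RNA pooled from 3 brains, and 3 Olig2-/- arrays (replicates 2, 4 and 5) and 3 Olig2+/+ arrays (replicates 1, 4 and 5) were analysed, where the design text states 5 per genotype. All values are log2 expression values as deposited, and every difference is Olig2-/- minus Olig2+/+ on that log2 scale.

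Heparan sulfate and chondroitin sulfate are long chains of alternating sugars that are attached to core proteins. Polymerases of the Golgi extend the chains, and sulfotransferases then add sulfate groups at set positions of the sugars. The sulfation pattern governs which growth factors, morphogens and guidance proteins a chain binds. Sulf1 and Sulf2 act later, outside the cell, where they remove 6-O-sulfate groups from heparan sulfate. Glypicans, held to the membrane by a lipid anchor, and syndecans, which span the membrane, are the main cell-surface carriers of heparan sulfate. In the developing forebrain these chains are known for shaping FGF, Wnt and Shh signalling and the paths of growing axons.

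Promoter windows of 300 bases are shown for Chst1, Gpc4 and Extl2. Chst1 and Gpc4 had the lowest limma p-value in each direction among members with a window in the RefSeq table. Of the 13 members in the plot of named members only 9 have a window. Extl2 is the only one of these with CAGCTG, in 9.09% of their 11 windows, against 16.3% of all windows. The windows run from 250 bases before the gene start to 50 bases after it in RefSeq on GRCm38.p6, 5′ to 3′ on the gene's strand. Capitals mark CANNTG, the E-box letters that basic helix-loop-helix factors such as Olig2 can bind.
Chst1, chr2:92600867-92601166, plus strand: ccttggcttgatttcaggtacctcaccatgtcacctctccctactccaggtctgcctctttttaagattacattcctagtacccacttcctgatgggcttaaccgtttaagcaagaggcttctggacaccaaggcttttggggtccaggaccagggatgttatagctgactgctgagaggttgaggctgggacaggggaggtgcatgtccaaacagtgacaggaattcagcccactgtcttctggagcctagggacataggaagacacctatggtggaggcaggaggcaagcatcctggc
Gpc4, chrX:52164874-52165173, minus strand: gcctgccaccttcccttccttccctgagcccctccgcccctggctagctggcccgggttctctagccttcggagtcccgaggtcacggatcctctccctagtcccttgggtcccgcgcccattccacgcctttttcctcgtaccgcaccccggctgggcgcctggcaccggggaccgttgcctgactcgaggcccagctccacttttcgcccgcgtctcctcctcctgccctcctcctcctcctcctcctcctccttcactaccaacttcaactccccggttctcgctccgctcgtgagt
Extl2, chr3:116008047-116008346, plus strand: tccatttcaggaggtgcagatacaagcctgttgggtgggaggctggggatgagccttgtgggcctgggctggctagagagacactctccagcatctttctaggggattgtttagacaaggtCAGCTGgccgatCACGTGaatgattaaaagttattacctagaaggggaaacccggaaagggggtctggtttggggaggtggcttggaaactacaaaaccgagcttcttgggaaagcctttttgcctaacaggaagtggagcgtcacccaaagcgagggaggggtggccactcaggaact

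The window of Extl2 holds 2 E-boxes, one of them CAGCTG, and the windows of Chst1 and Gpc4 hold none. A second window of Extl2, at chr3:116007199-116007498, holds none either. Over the 37 windows that the table gives for 31 members, CANNTG occurs in 51.35%, against 72.31% of all 32851 windows of that length. The median share of G and C letters is 66.33% in the member windows and 52.67% in all windows, and its part in these shares was not tested. CAGCTG occurs in 16.22% of the member windows and in 16.3% of all windows, and CATATG in 0 of the 37 member windows and in 3.91% of all windows. Each of the searched words equals its own reverse complement, so both strands are covered, and every CAGCTG or CATATG is also a CANNTG. The matches describe the letters of these windows and no binding was measured.

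Olig2 itself had values of 7.48, 7.53 and 7.76 on the Olig2-/- arrays and 8.20, 8.22 and 8.42 on the Olig2+/+ arrays, so the groups did not overlap. The transcript was 1.62-fold lower in Olig2-/- and stayed well above the array medians. Whether its probe set falls inside the part that the mutant allele lacks is not stated in the labels, so this checks the labels only in part. Of 11 kept ventral telencephalon markers 8 were lower in Olig2-/- (median -0.07), where 50.5% of all genes were lower. Without Olig2+/+ replicate 1, 6 were lower and 5 higher (median -0.03). Dlx1, Dlx2, Isl1 and Gad1 read 9.97 or more on every array, and Dlx6, the dimmest, read 5.06 to 5.44. Six3 (difference -0.89), Lhx6 (-0.33) and Gsx2 (0.54) did not overlap between genotypes. Nkx2-1, a marker of the medial ventral telencephalon, read 2.69 to 3.36, near or below the array medians. Array medians lay between 3.14 and 3.20, and 33.2% to 33.7% of the values on each array lay within 0.03 of the floor of 2.273 that the background correction leaves. Of the arrays, Olig2+/+ replicate 1 stood apart: among 10630 genes it gave the highest or the lowest value for 58.5%, against 21.1% to 32.3% for each other array. It also carried lower cell cycle markers (median -0.31 from the other Olig2+/+ arrays over 11 genes) and higher neuronal markers (0.16 over 12 genes). Nothing in the labels says that the pools came from separate litters, so p-values measure the spread between these 6 pools. Because whole tissue was measured, fewer cells of a type and less RNA per cell cannot be told apart.

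Sulfotransferases read mostly lower in the Olig2-/- tissue, whereas Sulf1 and Gpc4 read higher, as did Gpc6 at its brightest probe set but not in the mean over its 5 kept ones (0.02), and none of these differences passed the adjusted threshold. A probe set was kept when it lay above its array's median on at least 3 of the 6 arrays, whatever the genotype, and a gene was represented by its brightest kept probe set. That left 30 members with 51 kept probe sets, 27 of the 30 above the median on all 6 arrays. Those 27 include Csgalnact1, at 3.29 on every array but Olig2+/+ replicate 1, and Gpc3, at 3.30 to 3.48 on every array but Olig2-/- replicate 2. Passing the filter therefore need not mean that a transcript was detected. Limma found 0 of 22565 kept probe sets past an adjusted p of 0.05 (the smallest was 0.511), with 2121 at an unadjusted p below 0.05. Of the 30 members, 7 had an unadjusted p below 0.05, against 7.9% of the 10630 genes. The genotypes did not overlap for 10 of the 30, 5 higher and 5 lower in Olig2-/-, against 16.4% of all genes (8.45% higher, 7.96% lower). The count of 7 depended on single arrays: it was 4 without Olig2-/- replicate 2, 2 without Olig2-/- replicate 4 and 2 without Olig2-/- replicate 5. The matching shares of all genes were 7.33%, 4.65% and 4.27%.

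By class, 11 of the 13 kept sulfotransferases were lower in Olig2-/- by any amount (median difference -0.13), where 50.5% of all genes were lower (median 0.00). The 7 kept polymerases split into 4 lower and 3 higher (median -0.09). Both sulfatases were higher at their brightest probe sets (median 0.18), as were 4 of 5 glypicans (median 0.37). The glypican median was 0.15 without Olig2-/- replicate 2, 0.083 with probe sets averaged and 0.076 in the replicate block, and of the 10 kept glypican probe sets 6 were higher and 4 lower. Of the 3 kept syndecans 2 were higher and 1 lower, with a median of 0.00. Without Olig2+/+ replicate 1 the sulfotransferases had 10 of 13 lower (median -0.15), where 48.4% of all genes were lower. On that reduced set all 5 glypicans were higher (median 0.31) and the polymerases had 3 lower (median 0.00). These are descriptions of the kept genes, with no test of a class.

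Markers of other regions and cell types differed with genotype as well. Of 9 markers of thalamus and habenula, all kept, 8 were lower in Olig2-/-, 6 without overlap and 7 at an unadjusted p below 0.05 (median difference -0.56, also without Olig2+/+ replicate 1). Gbx2, a thalamic transcription factor, read 5.14, 5.84 and 6.07 in Olig2-/- and 6.93, 7.28 and 6.97 in Olig2+/+ tissue, and Rora differed by -1.29. Among the others without overlap, Foxp2 differed by -0.56 and Barhl2 by -0.43. The log2 of the summed level of the 9 markers was 10.96 to 11.28 in Olig2-/- and 11.43 to 11.69 in Olig2+/+ tissue. Most of that sum comes from the brightest, Foxp2 (9.25 to 10.30), Lhx2 (9.43 to 9.88, difference 0.07) and Lhx9 (8.32 to 9.42). Which cells of this dissection express them was not tested. Of 8 pallium markers 6 were kept, 5 of them higher (median 0.15), with Tbr1 (0.45) and Neurod6 (0.52) without overlap, and Emx1 and Slc17a7 were not kept. Their summed level was 9.99 to 10.24 in Olig2-/- and 9.76 to 9.93 in Olig2+/+ tissue. Of 12 neuronal markers, all kept, 10 were lower (median -0.10). Olig2+/+ replicate 1 was the highest array for 8 of the 12, and without it 8 were lower and 4 higher (median -0.06). Mapt (-0.56), Ina (-0.60) and Syn1 (-0.60) were lower and Syt4 (0.42) higher without overlap. The summed level was 14.45 to 14.56 in Olig2-/- and 14.58 to 14.86 in Olig2+/+ tissue, with 14.86 on Olig2+/+ replicate 1. None passed the adjusted threshold in limma, and the part of these tissues and cells in the members' values was not tested.

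**Figure D1:**
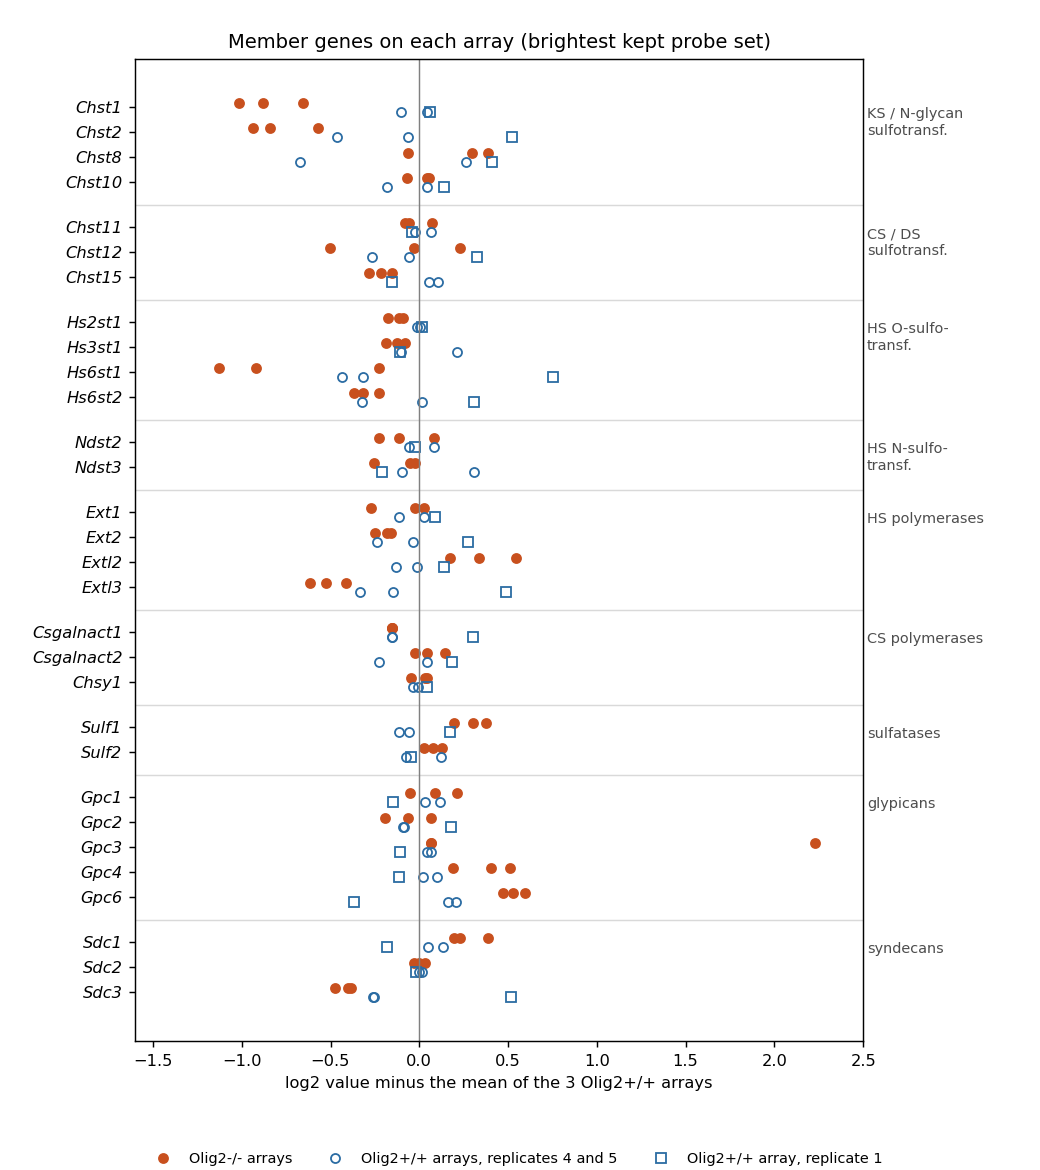
Log2 value of each of the 30 kept members on each array minus the mean of the 3 Olig2+/+ arrays (x axis), at the brightest kept probe set, grouped by role (KS, keratan sulfate; CS, chondroitin sulfate; DS, dermatan sulfate; HS, heparan sulfate). Filled points are the Olig2-/- arrays, open circles Olig2+/+ replicates 4 and 5, and open squares Olig2+/+ replicate 1, which is the highest array for 15 of the 30 members.

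Chst1, which adds sulfate to galactose of keratan sulfate, had the lowest limma p-value of the members. Its single probe set read 7.17, 7.30 and 7.53 on the Olig2-/- arrays (replicates 2, 4 and 5) and 8.24, 8.23 and 8.08 on the Olig2+/+ arrays (replicates 1, 4 and 5). Every Olig2-/- array lay at least 0.55 below every Olig2+/+ array. The means were 7.33 ± 0.18 in Olig2-/- and 8.18 ± 0.09 in Olig2+/+ tissue (SD, n = 3 each), a 1.80-fold lower level in Olig2-/- with a difference of -0.85 (95% interval -1.13 to -0.57, limma's adjusted p = 0.511). Leaving out each array in turn gave differences from -0.95 to -0.77, so no single array set the size.

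Chst2 adds sulfate to N-acetylglucosamine, in keratan sulfate and in the ligands of L-selectin. Its brightest probe set read 5.39, 5.67 and 5.30 in Olig2-/- and 6.76, 6.18 and 5.78 in Olig2+/+ tissue. The groups did not overlap, but the Olig2+/+ arrays spread over 0.98 log2 units, with replicate 1 the highest. The difference was -0.78 (95% interval -1.42 to -0.14, limma's adjusted p = 0.511), and without Olig2+/+ replicate 1 it was -0.52. A second, dimmer kept probe set of Chst2 did not show it: 4.02 to 4.06 in Olig2-/- and 3.83 to 4.04 in Olig2+/+ tissue, a difference of 0.07 (-0.12 to 0.27). Chst8, which sulfates N-acetylgalactosamine on N-glycans of pituitary hormones, differed by 0.21 with a wide interval (-0.55 to 0.96), since Olig2+/+ replicate 4 alone read 2.60. Chst10, which makes the HNK-1 epitope of neural adhesion molecules, differed by 0.01 (-0.25 to 0.27).

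Among the chondroitin and dermatan sulfate sulfotransferases the differences were small. Chst15, which adds the second sulfate of the highly sulfated chondroitin sulfate E unit, read 5.64, 5.77 and 5.71 in Olig2-/- and 5.77, 6.03 and 5.98 in Olig2+/+ tissue. Olig2+/+ replicate 1 lay within the Olig2-/- range and the other Olig2+/+ arrays lay above it. The difference was -0.22 (-0.45 to 0.01, limma's adjusted p = 0.511), and -0.30 without Olig2+/+ replicate 1. Chst11, the main chondroitin 4-O-sulfotransferase, differed by -0.02 (-0.21 to 0.16) at its brightest probe set. Its dimmer one read 3.77, 3.56 and 3.82 in Olig2-/- and 3.86, 3.93 and 3.95 in Olig2+/+ tissue, without overlap and with a difference of -0.20. Chst12, a related 4-O-sulfotransferase, differed by -0.10 (-0.68 to 0.48). The probe sets of Chst3 and Chst7, which place sulfate at the 6-O position of chondroitin, and of Chst14, which acts on dermatan sulfate, were not kept.

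All 4 kept O-sulfotransferases of heparan sulfate were lower in Olig2-/-, by unequal amounts. Hs2st1, which sulfates the uronic acid at the 2-O position, read 9.29, 9.31 and 9.23 in Olig2-/- and 9.42, 9.39 and 9.41 in Olig2+/+ tissue. The groups were tight and did not overlap, and the difference was -0.13 (-0.28 to 0.03, limma's adjusted p = 0.513), a 1.09-fold lower level. Its other 3 kept probe sets gave -0.14, -0.21 and -0.26, so all 4 had the same sign, 2 of them without overlap.

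Of the enzymes that add the 6-O-sulfates which Sulf1 and Sulf2 remove, Hs6st1 read 4.66, 5.56 and 4.87 in Olig2-/- and 6.53, 5.35 and 5.47 in Olig2+/+ tissue. These groups overlapped and Olig2+/+ replicate 1 was by far the highest. The difference of -0.76 (-1.72 to 0.20, limma's adjusted p = 0.515) became -0.38 without that array. Hs6st2 read 7.76, 7.71 and 7.85 in Olig2-/- and 8.38, 8.09 and 7.75 in Olig2+/+ tissue, a difference of -0.31 (-0.71 to 0.10), or -0.15 without Olig2+/+ replicate 1. Its second kept probe set stayed at 5.53 to 5.86 on all arrays. Hs3st1, which makes the 3-O-sulfated site known for binding antithrombin, differed by -0.13 (-0.40 to 0.14). Hs6st3 lay at the floor of 2.27 on all 6 arrays.

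The N-deacetylase/N-sulfotransferases start heparan sulfate modification by replacing acetyl with sulfate groups. Ndst2 read 4.67, 4.79 and 4.98 in Olig2-/- and 4.87, 4.84 and 4.98 in Olig2+/+ tissue, with full overlap and a difference of -0.09 (-0.33 to 0.16, limma's adjusted p = 0.716). Ndst3 was close to the array medians, at 3.24, 3.01 and 3.21 in Olig2-/- and 3.06, 3.58 and 3.17 in Olig2+/+ tissue, and passed the filter on 4 arrays. Ndst4 had 3 probe sets, none kept.

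The heparan sulfate polymerases held members on both sides. Extl2 transfers N-acetylglucosamine to the linker region and in mice limits chain synthesis. It read 6.50, 6.86 and 6.66 in Olig2-/- and 6.46, 6.19 and 6.31 in Olig2+/+ tissue, without overlap, the lowest Olig2-/- array lying just above the highest Olig2+/+ array. The difference was 0.35 (0.05 to 0.66, limma's adjusted p = 0.511), and 0.13 (-0.18 to 0.44) at its second kept probe set, where the groups overlapped.

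Extl3, which starts heparan sulfate chains, read lower in Olig2-/-, at 6.94, 6.74 and 6.82 in Olig2-/- and 7.84, 7.01 and 7.20 in Olig2+/+ tissue. The groups did not overlap, and the Olig2-/- arrays spanned 0.20 while the Olig2+/+ arrays spanned 0.82. The difference of -0.52 (-1.06 to 0.02, limma's adjusted p = 0.511) became -0.28 without Olig2+/+ replicate 1. Ext1 and Ext2, which together extend the chain, differed by -0.09 (-0.36 to 0.17) and -0.20 (-0.54 to 0.14), with overlap for both. Extl1 was not kept.

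The chondroitin sulfate polymerases showed small differences. Chsy1, which elongates chondroitin chains, read 9.06 to 9.15 on the Olig2-/- arrays and 9.07 to 9.15 on the Olig2+/+ arrays, a difference of 0.01 (-0.15 to 0.17). Csgalnact2, one of the enzymes that start the chain, differed by 0.06 (-0.25 to 0.36). Its relative Csgalnact1 read 3.29 on every array except Olig2+/+ replicate 1, at 3.74, which alone made its difference of -0.15 (0.00 without it; limma's adjusted p = 0.643). Chsy3 and Chpf, further elongation factors, were not kept, and both read highest on Olig2+/+ replicate 1 (3.63 and 2.91).

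Both kept probe sets of Sulf1 read higher in Olig2-/-. The brighter one gave 6.13, 6.06 and 5.95 on the Olig2-/- arrays and 5.93, 5.69 and 5.64 on the Olig2+/+ arrays, and the other 6.14, 6.15 and 5.72 on the Olig2-/- arrays and 5.16, 5.51 and 5.51 on the Olig2+/+ arrays. Neither pair of groups overlapped, although Olig2+/+ replicate 1 was the highest of its group at the first and the lowest at the second. The differences were 0.29 (0.04 to 0.54) and 0.61 (0.21 to 1.01), with limma's adjusted p = 0.511 for both. Among members, Sulf1 was the only one whose kept probe sets all lacked overlap while numbering more than 1. Leaving out each array in turn kept the first between 0.23 and 0.38.

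Sulf2, the second extracellular sulfatase, showed no such agreement between probe sets. Its brightest one differed by 0.08 (-0.12 to 0.28), and the other 2 kept ones by -0.30 (-0.78 to 0.18) and -0.04 (-0.51 to 0.43). The groups overlapped at all 3, and the brightest is of the type marked _x_at, which Affymetrix uses for probes that may bind other transcripts.

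**Figure D2:**
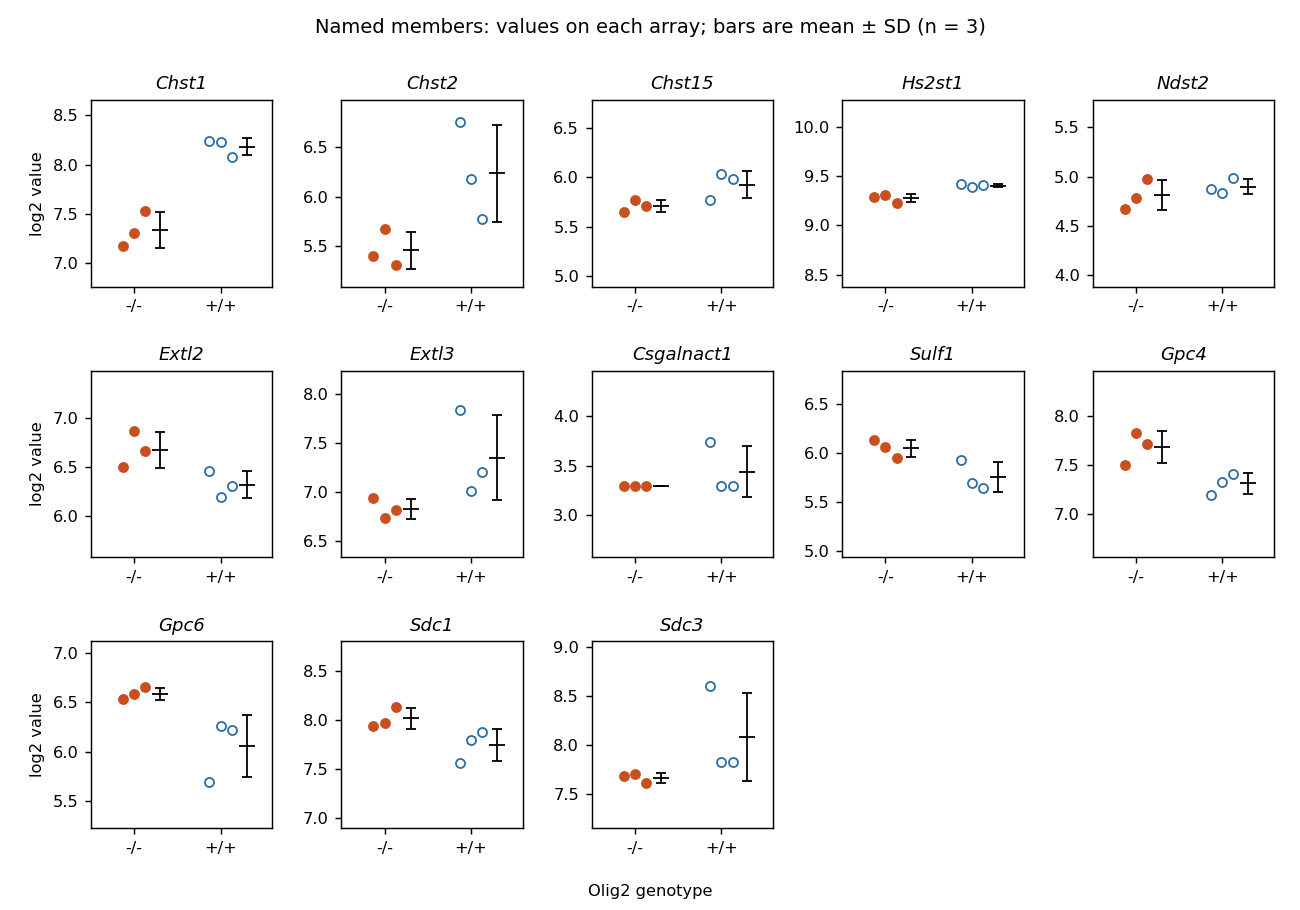
Log2 values on each array for the 13 members named by rule, with the Olig2-/- arrays left and the Olig2+/+ arrays right, and mean ± SD (n = 3) beside each group. Every panel spans the same height in log2 units. The groups are apart for 10 genes and overlap for Chst15, Ndst2 and Csgalnact1.

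Of the glypicans, Gpc4 and Gpc6 read higher in Olig2-/- at their brightest probe sets. Gpc4, known in mice as a synapse-promoting protein released by astrocytes, read 7.50, 7.82 and 7.72 in Olig2-/- and 7.20, 7.33 and 7.41 in Olig2+/+ tissue. The groups did not overlap, and the difference was 0.37 (0.09 to 0.64, limma's adjusted p = 0.511), a 1.29-fold higher level. Its second kept probe set differed by 0.30 (-0.09 to 0.68), in the same direction with overlap. Leaving out each array in turn gave 0.30 to 0.46 for the first.

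Gpc6, its close relative with the same reported role in mouse astrocytes, read 6.53, 6.58 and 6.65 in Olig2-/- and 5.69, 6.26 and 6.22 in Olig2+/+ tissue. The Olig2-/- arrays lay close together and above all Olig2+/+ arrays, of which replicate 1 was the lowest. The difference of 0.53 (0.12 to 0.94, limma's adjusted p = 0.511) became 0.35 without Olig2+/+ replicate 1. The other 4 kept probe sets ranged from -0.44 to 0.21, all with overlap, and the mean over the 5 differed by 0.02. Which transcripts of Gpc6 each probe set detects was not analysed here.

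Gpc3, whose loss causes overgrowth in humans and mice, stood out on 1 array. It read 5.64, 3.48 and 3.48 on Olig2-/- replicates 2, 4 and 5 and 3.30, 3.48 and 3.45 on the Olig2+/+ arrays, so only Olig2-/- replicate 2 was high. The difference of 0.79 (-0.69 to 2.27) was 0.07 without that array. Col1a1, Col1a2 and Col3a1, collagens of meninges and mesenchyme, were also highest on Olig2-/- replicate 2. Col3a1 read 8.10 there, 4.04 and 4.09 on the other Olig2-/- arrays, and 6.20, 4.35 and 4.67 on Olig2+/+ replicates 1, 4 and 5. Col1a2 read 6.04 on Olig2-/- replicate 2, 3.49 on Olig2+/+ replicate 1, where Gpc3 was lowest, and 2.51 or less elsewhere. Of the other listed markers, Lum, Ogn and Prrx1 were highest on Olig2-/- replicate 2. Dcn, Foxc1 and Twist1 were highest on Olig2+/+ replicate 1 and Foxd1 on Olig2+/+ replicate 5, while Alx4 read 2.27 on all arrays. Pdgfrb was higher on all Olig2-/- arrays (7.33, 7.19 and 7.30) than on the Olig2+/+ arrays (6.92, 6.73 and 6.93), without overlap. Over 12 listed markers of meninges and mesenchyme the log2 of the summed level was 8.27 to 9.50 in Olig2-/- and 7.96 to 8.44 in Olig2+/+ tissue, with 9.50 on Olig2-/- replicate 2. Col1a1, Col1a2, Lum, Dcn, Foxc1, Twist1, Ogn and Alx4 of that list were not kept, and their part in the Gpc3 value was not tested.

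Gpc1, a glypican linked to brain size in mice, differed by 0.08 (-0.18 to 0.35). Gpc2, which is made by developing neurons, differed by -0.06 (-0.34 to 0.21). Gpc5 was not kept.

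The syndecans gave no common direction. Sdc3, the syndecan of axons and developing neurons, read 7.68, 7.70 and 7.61 in Olig2-/- and 8.60, 7.83 and 7.83 in Olig2+/+ tissue, without overlap. Both lower Olig2+/+ arrays lay only 0.12 above the highest Olig2-/- array, and replicate 1 carried most of the difference of -0.42 (-0.97 to 0.13, limma's adjusted p = 0.519), which was -0.16 without it. Its other kept probe sets differed by -0.27 and 0.04.

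Sdc1, which in mice is found on neural progenitors, read 7.94, 7.97 and 8.14 in Olig2-/- and 7.57, 7.79 and 7.88 in Olig2+/+ tissue at its brightest probe set, also of the _x_at type, without overlap. The difference there was 0.27 (0.002 to 0.54, limma's adjusted p = 0.511). Its next probe set had the opposite sign, at 6.49, 6.72 and 6.69 in Olig2-/- and 7.30, 6.72 and 7.11 in Olig2+/+ tissue. That difference was -0.41 (-0.82 to -0.004), so the intervals of these probe sets lie on opposite sides of 0. Averaged over its 4 kept probe sets Sdc1 differed by -0.01, so its probe sets give no common direction. Sdc2 differed by 0.00 (-0.15 to 0.15) at its brightest and 0.25 (-0.11 to 0.61) at its second kept probe set. Sdc4 was not kept.

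Probe sets of a gene agreed in sign for 7 of the 12 members with more than 1 kept probe set. These were Chst11, Hs2st1, Hs6st2, Extl2, Sulf1, Gpc4 and Sdc2. Chst2, Sulf2, Gpc6, Sdc1 and Sdc3 had kept probe sets on both sides of 0. The remaining 18 kept members rest on 1 kept probe set each, Chst1, Chst15 and Extl3 among them. The 10 members without a kept probe set were Chst3, Chst7, Chst14, Hs6st3, Ndst4, Extl1, Chsy3, Chpf, Gpc5 and Sdc4. They read between 2.27 and 3.63 on every array, and none exceeded its array's median on 3 or more arrays.

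**Figure D3:**
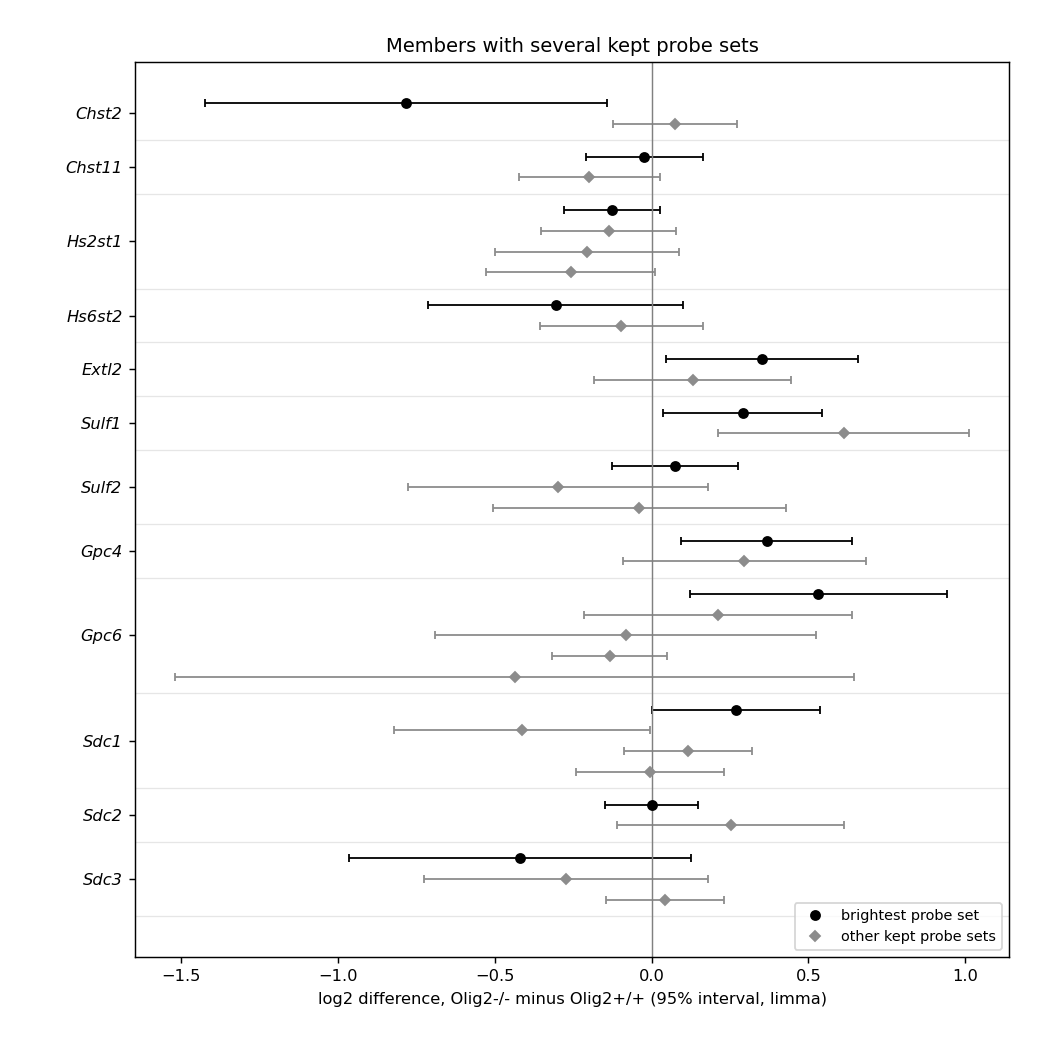
Log2 difference with its 95% interval (limma; x axis) for each kept probe set of the 12 members with more than 1, black for the brightest and grey for the others. Both probe sets of Sulf1 lie right of 0 and all 4 of Hs2st1 left of it, whereas Sdc1 has intervals on opposite sides.

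Olig2+/+ replicate 1 was the highest array for 15 of the 30 kept members, where it was the highest for 31.4% of all genes. Of the 20 kept sulfotransferases and polymerases it was the highest for 13. Its median deviation from the other Olig2+/+ arrays was 0.21 over those 20 and -0.17 over the 5 kept glypicans. Without it the differences of Chst2, Hs6st1, Hs6st2, Ext2, Extl3, Gpc6 and Sdc3 all shrank by more than 0.10. Those of Chst1, Hs2st1, Gpc4 and Sdc1 shrank by less than 0.10, and that of Sulf1 grew to 0.38. The groups then did not overlap for 11 of the 30, against 22.6% of all genes, and 8 had an unadjusted p below 0.05, against 5.52%. The part that the cell cycle and neuronal levels of this array have in these values was not tested.

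**Figure D4:**
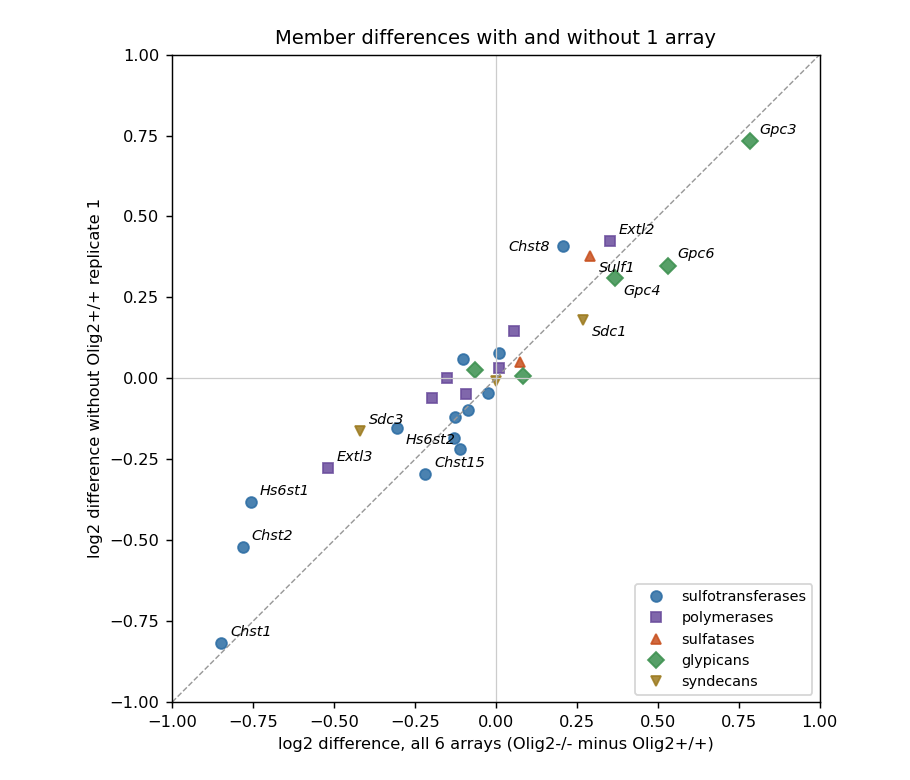
Log2 difference of each kept member over all 6 arrays (x axis) and without Olig2+/+ replicate 1 (y axis), coloured by class; the dashed line marks equal values. Chst1 stays near the line at -0.85 and -0.82, whereas Chst2, Hs6st1, Extl3 and Sdc3 lie above it, closer to 0 without that array.

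Other genes of the pathway, listed beside the members, mostly overlapped. Of 15 genes of the linker region and of sugar and sulfate supply, 11 were kept, 5 higher and 6 lower (median 0.00). The sulfate transporter Slc26a2 alone had no overlap, at 4.18, 4.18 and 4.24 in Olig2-/- and 4.29, 4.39 and 4.33 in Olig2+/+ tissue. Of 14 further modifying enzymes 4 were kept. The epimerase Glce, which turns glucuronic into iduronic acid in heparan sulfate, read 6.54, 6.60 and 6.69 in Olig2-/- and 7.16, 6.80 and 6.84 in Olig2+/+ tissue, a difference of -0.32 without overlap. Dsel, which makes the same turn in dermatan sulfate, read 6.24, 6.22 and 6.27 in Olig2-/- and 6.15, 5.99 and 5.83 in Olig2+/+ tissue, a difference of 0.25, also without overlap.

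Core proteins outside the glypican and syndecan families gave mixed values. Both kept secreted heparan sulfate proteoglycans were lower, with a difference of -0.34 for Agrn and -0.19 for Col18a1, and with overlap. Among 6 kept chondroitin sulfate proteoglycans 5 were lower (median -0.08), where 50.5% of all genes were. Olig2+/+ replicate 1 was the highest array for 4 of the 6, and without it 3 were lower and 3 higher (median -0.04). Bcan, a brain-specific one, read 3.94, 3.98 and 4.24 in Olig2-/- and 5.51, 4.75 and 4.79 in Olig2+/+ tissue, without overlap. Its probe set is dim and also of the _x_at type. Ncan read 11.05, 10.98 and 11.03 in Olig2-/- and 11.48, 11.24 and 11.45 in Olig2+/+ tissue, also without overlap. None of these passed the adjusted threshold in limma. Bcan and Ncan were listed with their earlier values in these data known, so their direction is a description only.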

How the data were processed

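The deposited values are log2 expression values per probe set; per the series design text and the submitters' processing notes, the authors used GCOS, MAS5 and GCRMA, with background correction and quantile normalization, in versions not given in the sources used here. GCRMA leaves a floor and compresses dim genes, and quantile normalization hides a change in total RNA. Genotype and replicate number came from the sample titles. Probe sets were named from the platform annotation: 34945 of 45037 had 1 symbol, 932 had several and 9160 none. The filter kept 22565 that exceeded the median of the array on 3 or more of the 6, for 10630 genes.

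The comparison between genotypes used limma (version 3.58.1, under R 4.3.3) on each kept probe set, with lmFit and eBayes, no covariate and two-sided p-values, adjusted by Benjamini-Hochberg over all kept probe sets at 0.05, after a check on simulated data. Intervals are limma's at 95%. The number of arrays limits the precision. Values on every array were given for the member of lowest p in each role and for each member without overlap. From the other lists, up to 4 genes each without overlap were named, and other genes were named after their values were seen. Not named above were Mcm4 (0.40), of 11 kept cell cycle markers, and Pecam1 (0.39), of 7 kept endothelium markers. Each was the only kept gene of its list without overlap, where 16.4% of all genes had none. Members and lists were chosen with earlier results of these data known. Alternatives were other filters, repeated quantile normalization, median centring, another variance prior, array weights, a replicate block, averaged probe sets and left-out arrays.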

Additional observations from a re-analysis of the deposited data

How the results depend on the processing

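The precision of every value is limited by 3 arrays per genotype and, for dim probe sets, by signal close to the floor. Under 15 alternatives no probe set passed the adjusted threshold in limma, though averaging probe sets gives no count of probe sets. The 13 named members kept their direction wherever they differed from 0, except Sdc1, at -0.0080 with all kept probe sets averaged. Csgalnact1 was at 0.00 in the replicate block and without Olig2+/+ replicate 1. Much of this was fixed beforehand. Of the 13, 10 were named because their groups lacked overlap, and leaving out arrays cannot reverse those. Another filter or variance prior leaves a probe set's difference unchanged. Leaving out 1 array at a time gave 1121 to 3490 probe sets at an unadjusted p below 0.05 (1205 without Olig2-/- replicate 4, 1402 without Olig2+/+ replicate 1). It gave 2 to 8 of the 30 members at that p, where the share of all genes ran from 4.27% to 13.6%. Without Olig2+/+ replicate 1, 11 of the 30 members lacked overlap, against 22.6% of all genes (16.4% on all 6 arrays). Leaving out an array cannot create overlap where there was none, so such counts cannot fall. With 1 array left out, the median difference of the members ran from -0.095 to -0.0039. By role the medians ran from -0.47 to -0.22 for keratan sulfate and N-glycan sulfotransferases, -0.25 to 0.0056 for chondroitin and dermatan sulfate sulfotransferases, -0.32 to -0.17 for heparan sulfate O-sulfotransferases, and 0.15 to 0.42 for glypicans. Array weights gave 3491 probe sets at an unadjusted p below 0.05 and a median of -0.12 for the heparan sulfate O-sulfotransferases. Without Olig2-/- replicate 2 and Olig2+/+ replicate 4 together there were 3276 such probe sets, and medians of -0.10 for chondroitin sulfate polymerases and 0.17 for glypicans. Without a filter those medians were -0.12 and 0.22, since dim members enter. With the filter at log2 above 4 the glypican median was 0.22 and that of the keratan sulfate and N-glycan sulfotransferases -0.78, since Chst8 drops out. With probe sets averaged these medians were 0.083 and -0.17. The replicate block gave 0.076 and -0.19, and -0.020 for the members' median. It rests on replicates 4 and 5, the numbers both genotypes share; deviations of same-numbered arrays correlated at -0.29 and 0.32, so the numbers were not taken as pairs, and 7 members had an unadjusted p below 0.05 in it, as without it. The cause of the other shifts was not tested.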

Other observations

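Genes that break the chains down differed by small amounts. Of 13 listed lysosomal and extracellular degradation enzymes 7 were kept, 6 lower and 1 higher in Olig2-/- tissue (median -0.07), where 50.5% of all genes were lower. Without Olig2+/+ replicate 1, which lay a median of 0.15 above the other Olig2+/+ arrays, 4 were lower and 3 higher (median -0.01). Galns, a lysosomal sulfatase of keratan and chondroitin sulfate, was the one without overlap. It read 3.53, 3.65 and 3.52 on the Olig2-/- arrays and 3.85, 3.71 and 3.70 on the Olig2+/+ arrays, a dim level where differences are compressed. None passed limma's adjusted threshold.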
